A study of Mus musculus with 2 samples.

Results

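The mitochondrial respiratory chain and ATP synthase are built mostly from proteins encoded in the nucleus, and the promoters of these nuclear genes were examined in mouse hippocampus by DNase-seq, which maps DNA that the enzyme DNase I can cut because it is not packed into nucleosomes. The genes were chosen by symbol among protein-coding genes of the GENCODE M21 annotation: those starting with Ndufa, Ndufb, Ndufc, Ndufs, Ndufv, Uqcr, Cox4, Cox5, Cox6, Cox7, Cox8 or Atp5, with Sdha, Sdhb, Sdhc, Sdhd and Cyc1 added and the Ndufaf assembly factors left out. This gave 86 of 21853 protein-coding genes: 38 of complex I, 4 of complex II, 9 of complex III, 18 of complex IV and 17 of complex V. Complexes were assigned by symbol, so Ndufa4, which is now known to belong to complex IV, and Atp5s, which is not a structural subunit of ATP synthase, stand where their names put them. Tissue labelled hippocampus in 1 field and a layer of hippocampus in another came from female B6CASTF1/J mice aged 2 months. These are F1 offspring of C57BL/6J and CAST/EiJ, and they came from The Jackson Laboratory. The labels give 1 group with 2 biological replicates, with no treatment, and each replicate has 1 library. The replicates share a donor record but not a biosample record. With 1 group there was no comparison between conditions and no test, and the spread between the replicates may be technical.

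Complex I takes electrons from NADH and complex II from succinate. They pass through complex III and cytochrome c to oxygen at complex IV, and complexes I, III and IV pump the protons that drive ATP synthase, complex V. Neurons depend heavily on this route for ATP. Several subunits of complex IV come in alternative forms from separate genes, some used in most tissues and others known mainly from heart and skeletal muscle, lung or testis. The transcription factors known to act on these promoters in mammals include nuclear respiratory factor 1 (NRF1), the ETS factor GABP, YY1 and the estrogen-related receptors (ERR).

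Replicate 1 had 129779 peaks and 227153 footprints, and replicate 2 had 71895 peaks and 118610 footprints. A peak is an accessible region with a signal value, and a footprint is a short stretch within accessible DNA that was cut less than its surroundings. Read depth is not stated. Peak values are in the deposited unit, whose scale is not given, so ratios between replicates rest on that scale. Values rose in equal steps within a library, and member values ran from 108 to 1521 steps in replicate 1 and from 83 to 663 in replicate 2. The labelled tissue was checked with marker genes: 6 of 6 forebrain glutamatergic markers, including Neurod2 at 3.72 and 2.69 in replicates 1 and 2, had a promoter peak in both libraries. The counts with a peak in both libraries were 1 of 3 for inhibitory neurons, 1 of 4 for astrocytes, 2 of 4 for oligodendrocytes, 0 of 3 for microglia, 0 of 3 for endothelium and 0 of 4 for heart and skeletal muscle. The 3 microglial markers each had a peak in replicate 1 only, at 0.495 to 0.734.

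Footprints with a match to the NRF1 motif (GCGC, any base, then TGCGC), searched on both strands within the footprint and 5 bases on each side, were found in both libraries at 18 members: 7 of complex I, 2 of complex II, 1 of complex III, 1 of complex IV and 7 of complex V. These were 20.9% of members, beside 5.85% of all protein-coding genes, and 23.1% of members with any footprint in both libraries, beside 10.4% of all such genes. The matches below are the 2 nearest to a transcription start site (TSS) in each complex, or the only 1, and they show what lay in those footprints. Each is read 5′ to 3′ on the strand given (GRCm38, RefSeq sequence), with the motif in capitals and 10 bases on each side.
Ndufa6 (chr15:82354249-82354278, -): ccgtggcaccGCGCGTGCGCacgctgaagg
Ndufb4 (chr16:37654428-37654457, +): ctcaggaagtGCGCCTGCGCgcgcacaagg
Sdha (chr13:74350276-74350305, +): ggaagattctGCGCCTGCGCaacacgcccc
Sdhd (chr9:50603909-50603938, +): cgctgccaccGCGCGTGCGCaccccagcga
Uqcrc1 (chr9:108936668-108936697, +): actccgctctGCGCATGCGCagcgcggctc
Cox6a1 (chr5:115349056-115349085, +): aggaactccaGCGCCTGCGCactttatccg
Atp5c1 (chr2:10080430-10080459, +): gggactcagtGCGCGTGCGCgggagctcag
Atp5k (chr5:108434430-108434459, -): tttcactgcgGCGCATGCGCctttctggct
The centre of the Ndufa6 match lay at -9.5 bp from the TSS, that of Ndufb4 at 10.5, Sdha at -10.5, Sdhd at -112, Uqcrc1 at -31.5, Cox6a1 at -89.5, Atp5c1 at -0.5 and Atp5k at 3.5. Of the 18 matches taken at 1 per gene, 15 lay within 100 bp of a TSS. Ndufa13 had the match farthest upstream, at -778. The letter at the free position was C in 8 of the 18 members, A in 4, G in 4 and T in 2, each read on the strand that matched. The footprints over these matches had a median length of 21.5 bp in replicate 1 and 17.5 bp in replicate 2.

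Footprints with a match to the ETS motif CCGGAAG were found in both libraries at 9 members (10.5%), beside 3.16% of all genes; of genes with any footprint in both libraries they were 11.5% at members and 5.64% overall. Those below come from all 5 complexes and, except the match at Atp5j, lie within 100 bp of a TSS. The Atp5j match, the only one shown from complex V, lies in a peak that covers a TSS of Gabpa. That peak was 363 bp from the nearest Atp5j TSS in both libraries, so it is nearer to Gabpa than to Atp5j. Gabpa is itself the gene of the DNA-binding subunit of GABP.
Ndufs1 (chr1:63176822-63176848, +): tgcagttccgCCGGAAGtagccgaggc
Ndufs8 (chr19:3912743-3912769, +): tgcggttcaaCCGGAAGgcggagccta
Sdhb (chr4:140961267-140961293, +): ctcggagaaaCCGGAAGcggccttcca
Uqcrq (chr11:53430810-53430836, -): tccgctcctcCCGGAAGtgacgggcga
Uqcrh (chr4:116075064-116075090, +): ggcgacctggCCGGAAGtgcggcatac
Cox6a1 (chr5:115348958-115348984, +): caccggcgcgCCGGAAGcggaaatggg
Atp5j (chr16:84835021-84835047, -): gctgagggacCCGGAAGcacttaccct
The centre of the Ndufs1 match lay at -2 bp from the TSS, that of Uqcrq at 4, Uqcrh at -6, Cox6a1 at 10, Ndufs8 at 12, Sdhb at 77 and Atp5j at 469. The other members with such a footprint were Ndufb9 and Atp5a1.

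Matches to the cAMP response element (CRE, TGACGTCA) lay in footprints of both libraries at 5 members (5.81%), Ndufb2, Ndufa10, Ndufa11, Uqcrfs1 and Atp5d, beside 2.19% of all genes; of genes with any footprint in both libraries they were 6.41% and 3.91%. The 3 below come from complexes I, III and V and show the whole palindrome next to the TSS.
Ndufb2 (chr6:39592541-39592568, +): tgcgacgcagTGACGTCAcgggccggga
Uqcrfs1 (chr13:30545328-30545355, -): ggcgtcgcgcTGACGTCAcaaaccctgc
Atp5d (chr10:80141382-80141409, +): ggcagggtgaTGACGTCAtgaccgagag
The footprints over the 5 CRE matches were 21 to 50 bp long in replicate 1 and 11 to 42 bp in replicate 2, and their medians were 27 and 25 bp. For all footprints at members the medians were 11 and 10 bp. The longest footprint at any member, 50 bp in replicate 1 and 42 bp in replicate 2, lay over the match at Ndufa11, at -766 bp from the TSS, in a peak 567 bp from the Ndufa11 TSS that covers a TSS of Vmac. Long footprints can hold more letters, so these lengths are a description.

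Most nuclear genes of oxidative phosphorylation had accessible promoters. A peak within 1 kb of a TSS was present in both libraries at 78 of the 86 genes (90.7%), where 59.0% of all protein-coding genes did. In replicate 1 it was 80 genes, beside 63.4% of all genes, and in replicate 2 it was 78, beside 60.4%. In the shorter, stricter deposited peak lists 77 members had a peak in both, beside 53.2%, and the gene lost was Cyc1. Complexes II, III and V had a peak in both libraries at every listed gene (4 of 4, 9 of 9 and 17 of 17). Complex I had 37 of 38 and complex IV 11 of 18. By comparison, 77 of 81 ribosomal protein genes (95.1%) and 36 of 39 proteasome subunit genes (92.3%), also taken by symbol, had a peak in both.

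Peak values of members were above the middle of all promoters but not extreme. Among the 78 genes with a peak in both libraries the strongest promoter peak had a median value of 4.78 in replicate 1 and 3.88 in replicate 2. For all protein-coding genes with a peak in both the medians were 3.38 and 2.82. The members' median percentile among accessible promoters was 68.2 in replicate 1 and 69.8 in replicate 2. Members ranged from 1.13 to 13.5 in replicate 1 and from 0.856 to 6.84 in replicate 2. The medians of ribosomal protein genes, 5.75 and 4.19, were higher than those of members in both libraries. Proteasome genes, at 5.16 and 3.55, were higher in replicate 1 and lower in replicate 2.

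**Figure D1:**
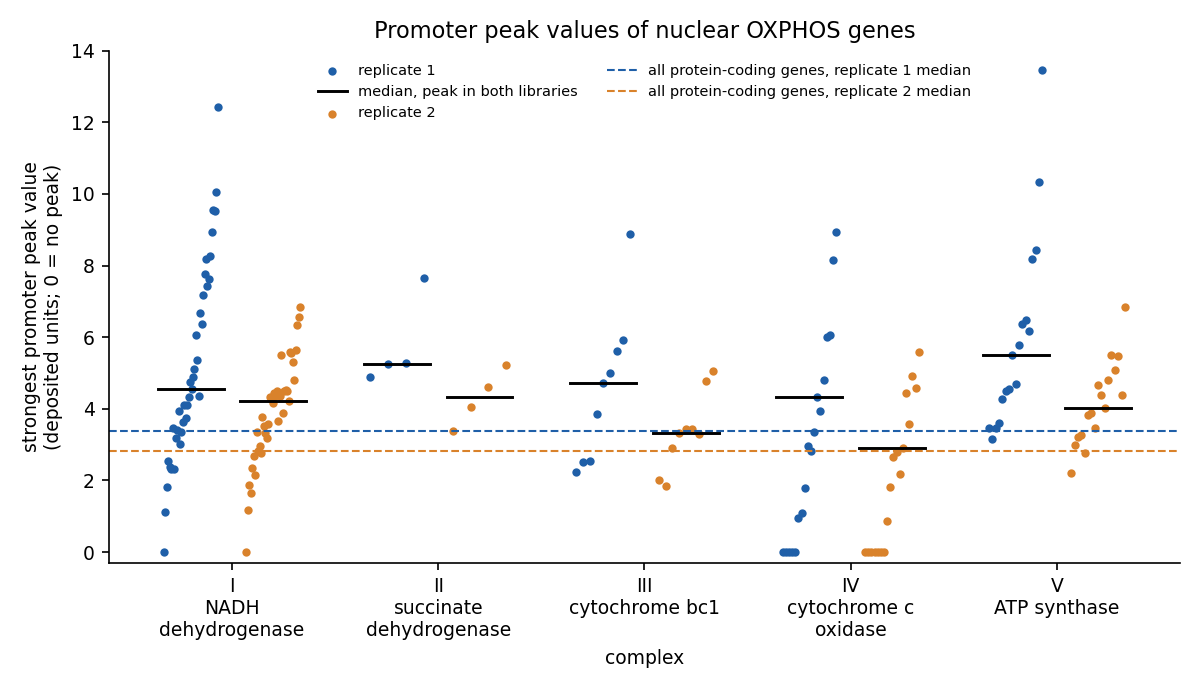
Value of the strongest promoter peak (y axis, deposited units, 0 where no peak was listed) for each of the 86 genes by complex (x axis), with replicate 1 in blue and replicate 2 in orange; black lines are medians over genes with a peak in both libraries and dashed lines are the medians of all protein-coding genes, 3.38 and 2.82. The genes at 0 belong to complex IV except 1 of complex I.

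In complex I the median was 4.55 in replicate 1 and 4.23 in replicate 2. Ndufa13 (accessory subunit, also known as GRIM-19) stood highest, with 12.4 in replicate 1 and 6.84 in replicate 2. That peak lay 643 and 723 bp from the annotated Ndufa13 TSS and 489 and 569 bp from a TSS of Yjefn3, so which of the genes it belongs to cannot be told from its position. Ndufb5, an accessory subunit of the membrane arm, followed at 10.05 and 6.55 (mean 8.30 ± 2.47, SD, n = 2). Core subunits of the arm that oxidises NADH differed among themselves: Ndufv1 had 9.54 and 5.64 and Ndufs1 8.27 and 5.30, while Ndufv2 had 4.12 and 3.20, below the complex I medians. The lowest value with a peak in both belonged to Ndufc2, at 1.13 and 1.18. These values came from different peaks. The strongest lay 743 bp from an annotated TSS in replicate 1, where a weaker peak covered a TSS, and the strongest covered a TSS in replicate 2. In replicate 1 these genes ran from percentile 19.8 of accessible promoters for Ndufc2 to 94.7 for Ndufb5, and to 98.4 for the peak near Ndufa13.

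Complex II has only nuclear subunits, and they lay close together. Sdhb, the iron-sulfur subunit, had 7.67 in replicate 1 and 5.22 in replicate 2. Sdha, the flavoprotein that oxidises succinate, had 5.25 and 4.07. The membrane anchors Sdhd and Sdhc had 5.28 and 4.62, and 4.89 and 3.37. Sdhb was the highest in both libraries, and Sdhd, Sdha and Sdhc followed in the same order in both, at differences within the spread between replicates. Their peaks covered the TSS in replicate 1. Sdha and Sdhd each share the promoter with a gene on the other strand (Ccdc127 at 29 bp and Timm8b at 98 bp), so the peak is shared as well.

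In complex III the median was 4.71 in replicate 1 and 3.33 in replicate 2. Uqcrq, a small accessory subunit, led with 8.90 and 5.07 (mean 6.98 ± 2.71, SD, n = 2), and Uqcrfs1, the Rieske iron-sulfur protein, had 5.93 and 4.78. Uqcrh, the hinge protein next to cytochrome c1, had 5.62 and 3.30, in a peak 250 bp from its own TSS and 52 bp from that of Lrrc41 in replicate 1. Cyc1, cytochrome c1 itself, was low at 2.51 and 1.85, and the core protein Uqcrc2 had 2.23 and 2.01. The electron carriers Uqcrfs1 and Cyc1 thus stood at percentiles 76.9 and 42.3 in replicate 1.

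In complex V the median was 5.50 in replicate 1 and 4.02 in replicate 2. It was the highest of the 5 complexes in replicate 1 only. In replicate 2 complex II (4.34) and complex I (4.23) were higher. Atp5g1, 1 of the 3 genes that encode the same mature c subunit of the proton-driven ring, had the highest replicate 1 value of all members, 13.5, and 6.83 in replicate 2. Atp5g2 had 8.20 and 5.08, and Atp5g3 3.48 and 3.21. The order was the same in both libraries. Among the subunits of the catalytic head, the beta subunit Atp5b had 10.3 and 4.40 (mean 7.36 ± 4.20, SD, n = 2), the delta subunit Atp5d 8.43 and 5.47 and the alpha subunit Atp5a1 3.17 and 2.98. Atp5b had the largest ratio between replicates of any member, 2.35. Its value in replicate 2 was below that of Atp5d and Atp5e (5.51), so its place in the order differed between replicates. The strongest peak of Atp5f1, at 5.77 in replicate 1 and 4.40 in replicate 2, lay 579 bp from its TSS in replicate 1 and covered a TSS of Wdr77.

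The 8 members without a peak in both libraries were 7 genes of complex IV and Ndufa4l2, and each has a relative with a peak in both. Of all genes, 4.41% had a peak in replicate 1 only, as did 2 members, and 35.2% had a peak in neither library, as did 6 members. Cox4i1, the form of subunit 4 used in most tissues, had 2.82 in replicate 1 and 2.65 in replicate 2, and Cox4i2, known from lung, had none in either. Cox6a1 had 8.94 and 5.59, and Cox6a2, the heart and skeletal muscle form, had none. Cox6b1 had 2.97 and 1.83, and Cox6b2, known from testis, had 1.09 in replicate 1 and none in replicate 2. In library preparations from whole tissue, a site open in few cells and a site weakly open in many cannot be told apart.

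Cox7a2 had 6.01 in replicate 1 and 3.59 in replicate 2, and Cox7a1, the muscle form, had 0.955 in replicate 1 and none in replicate 2. Cox7a2l, whose product helps join complexes III and IV, had 3.35 and 2.80. Cox7b had 1.79 and 0.856, the lowest value with a peak in replicate 2, and Cox7b2, known from testis, had none. Cox8a had 8.14 and 4.58, while Cox8b, the muscle form, and Cox8c, the testis form, had none. Ndufa4 had 3.02 and 3.77, and its relative Ndufa4l2, induced by hypoxia in other cells, had none. These 7 families are those that hold a gene without a peak in both libraries. The higher values of their widely used forms thus follow largely from that choice. Cox6b2 and Cox7a1 had a value in replicate 1 only, below those of Cox6b1 and Cox7a2. The genes with no alternative form named here, Cox5a (3.95 and 2.90), Cox5b (6.05 and 4.92), Cox6c (4.80 and 4.44) and Cox7c (4.34 and 2.19), all had a peak in both.

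**Figure D2:**
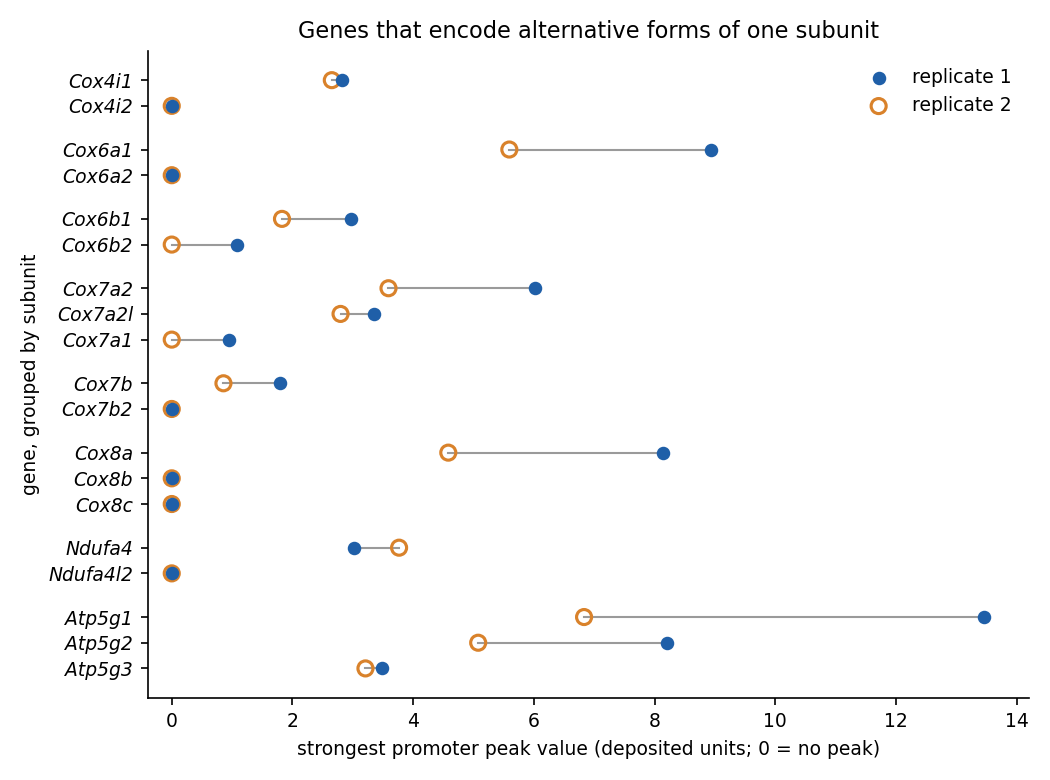
Strongest promoter peak value (x axis, deposited units, 0 where no peak was listed) of genes that encode alternative forms of the same subunit or related proteins, grouped by subunit (y axis), with replicate 1 as filled and replicate 2 as open circles joined by a line. Cox6a1 and Cox8a stand at 8.94 and 8.14 in replicate 1 while Cox6a2, Cox8b and Cox8c are at 0; the 3 Atp5g genes all have peaks.

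The 6 genes with no peak also had no footprint and no base in the deposited lists of bases with FDR under 0.05 within 1 kb of a TSS, in either library. The nearest peak was 1867 bp away at Ndufa4l2, 1914 bp at Cox6a2 and 11487 bp at Cox4i2 in both libraries. In replicate 1 it was 2365 bp away at Cox7b2, 2900 bp at Cox8b and 8913 bp at Cox8c. At these promoters 91.2% to 100% of 31-base words occur only once in the genome; the read length is not stated. Cox6b2 and Cox7a1 each had 3 footprints in replicate 1, with 279 and 213 listed bases, and 0 in replicate 2. The 4 muscle markers, Acta1, Ckm, Myh6 and Actc1, had no promoter peak in either library.

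The sequences before the TSS of a family show the difference in base composition. The 200 bases before the TSS of Cox6a1 and of Cox6a2 follow (GRCm38, 5′ to 3′ on the gene's strand, ending at the base before the TSS), with capitals for matches on either strand to any of the 7 motifs searched: NRF1 as above, ETS CCGGAAG, YY1 AAGATGGC, SP/KLF GGGCGG, NFY CCAAT, CRE TGACGTCA and ERR TNAAGGTCA.
Cox6a1 (chr5:115348982-115349181, -): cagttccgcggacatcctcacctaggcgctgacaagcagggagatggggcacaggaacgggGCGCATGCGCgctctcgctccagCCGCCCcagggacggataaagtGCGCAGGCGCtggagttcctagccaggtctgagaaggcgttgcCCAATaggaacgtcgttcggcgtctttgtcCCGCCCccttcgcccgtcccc
Cox6a2 (chr7:128206388-128206587, -): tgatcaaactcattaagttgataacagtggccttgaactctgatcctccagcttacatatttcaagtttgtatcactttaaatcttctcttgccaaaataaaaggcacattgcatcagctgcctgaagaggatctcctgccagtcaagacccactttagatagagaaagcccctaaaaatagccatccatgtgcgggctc
The Cox6a1 stretch is 66.0% G and C with 20 CpG dinucleotides, and it holds 2 matches to NRF1, 2 to SP/KLF and 1 to NFY. The Cox6a2 stretch is 42.0% G and C with 1 CpG and holds 0 matches to the 7 motifs, which says only that these letters are not in that window. In the Cox6a1 stretch the replicate 1 footprints at -143 to -123 and -99 to -80 cover the NRF1 matches, at -139 to -130 and -94 to -85. The replicate 2 footprints there ran from -143 to -127 and from -96 to -81. The exon of a noncoding RNA gene on the other strand, Gm42903, overlaps the Cox6a1 stretch.

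CpG content went with accessibility here as in all genes. A promoter was called CpG-rich when the 250 bases on each side of the TSS had an observed over expected CpG ratio of at least 0.6 and at least 50% G and C, and 63 members (73.3%) were, beside 47.5% of all genes. Each of these 63 had a peak in both libraries, beside 90.6% of all CpG-rich genes. Of the 23 CpG-poor members 15 (65.2%) had a peak in both, beside 30.4% of all CpG-poor genes. The 8 members without a peak in both were CpG-poor, with ratios from 0.158 at Ndufa4l2 to 0.487 at Cox8c. CpG-poor members with high values existed too, such as Atp5d. The part of CpG content in the difference between members and other genes was not tested.

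Replicate 1 had the higher value at 69 of the 78 members, beside 9508 of the 12895 genes with a peak in both. Member ratios of replicate 1 to replicate 2 ran from 0.691 to 2.35, and agreement in rank was not tested. The median ratio of replicate 1 to replicate 2 was 1.34 at members and 1.23 at all genes with a peak in both, and complex IV had the highest, 1.60. Ndufb8 went the other way, with 4.36 in replicate 1 and 5.50 in replicate 2, as did Ndufab1, the mitochondrial acyl carrier protein, with 2.32 and 3.35. The 3 X-linked members were low: Ndufa1 had 1.80 and 1.88, Ndufb11 had 2.55 and 1.64, and Cox7b is given above. Their medians, 1.80 and 1.64, lay near those of all X-linked genes with a peak in both, 1.89 and 1.45, while autosomal genes had 3.47 and 2.89.

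**Figure D3:**
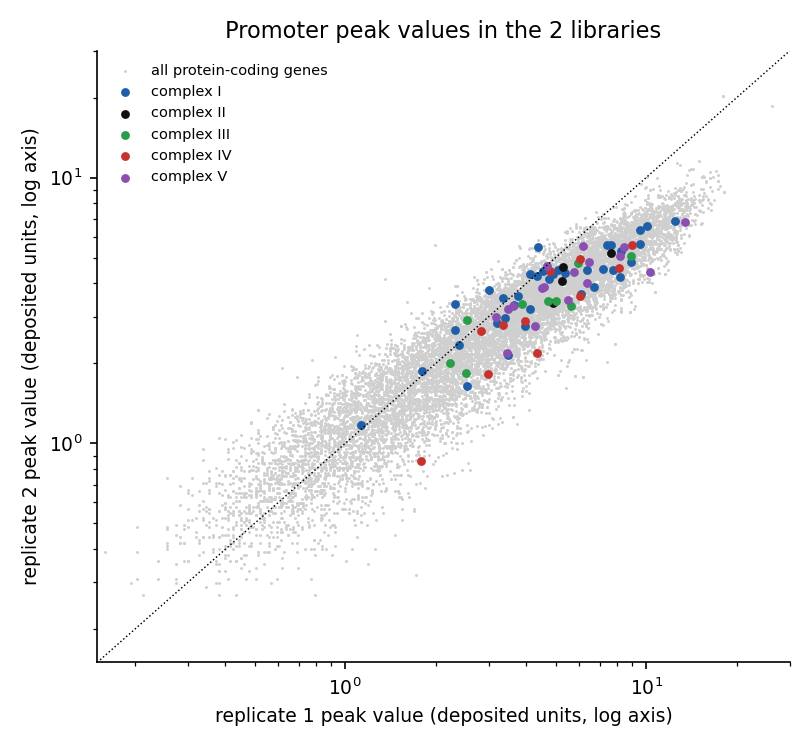
Strongest promoter peak value in replicate 1 (x axis) against replicate 2 (y axis), both in deposited units on log axes, for all protein-coding genes with a peak in both libraries (grey) and for the 78 members coloured by complex; the dotted line marks equal values. Most members lie in the upper part of the cloud and below the line, and the red point of complex IV at 1.79 and 0.856 is Cox7b.

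Many of these genes share a promoter with a neighbour on the opposite strand. A protein-coding gene starting within 1 kb in the other direction was found for 27 of the 86 members (31.4%), beside 9.87% of all genes. The median distance between the start sites was 98 bp, and 20 of the 27 were within 150 bp. The closest pairs were Ndufs1 with Eef1b2 and Ndufb11 with Rbm10, at 3 bp each, followed by Ndufa7 with the ribosomal protein gene Rps28 at 10 bp. Some partners also encode mitochondrial proteins: Mrpl36 of the mitochondrial ribosome starts 51 bp from Ndufs6, and the import factor gene Timm8b 98 bp from Sdhd. All 27 had a peak in both libraries, as did 94.2% of all genes with a divergent partner. Their median value, 4.89 in replicate 1 and 3.77 in replicate 2, was close to that of all members. The strongest peak covered an annotated TSS of the member itself in 68 of 80 cases in replicate 1 and 69 of 78 in replicate 2. In 7 and 6 cases it was nearer to another gene. Neither count was made over all protein-coding genes, so the members cannot be set beside them here.

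Each member with a peak in both libraries also had at least 1 footprint within 1 kb of a TSS in each, which made 78 of 86 genes, beside 56.0% of all genes. There were 417 footprints at members in replicate 1 and 356 in replicate 2. The median was 5 per gene in replicate 1 and 4 in replicate 2, the same as for all genes with a peak in both. Over both libraries Atp5g2 had the most, 13 in replicate 1 and 8 in replicate 2, followed by Ndufs7, the core subunit that holds the last iron-sulfur cluster, with 10 and 10, the most in replicate 2. Uqcrq had 10 and 8, Atp5g1 11 and 7, and Ndufa13 9 and 9. In complex IV Cox6a1 had 6 and 7 and Cox7a2 5 and 6, and in complexes II and III Sdhd had 5 and 6, Sdhc 4 and 5 and Uqcrh 6 and 5. The peak value of Ndufs7 was 4.75 in replicate 1, near the member median.

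A larger share of footprints at members than at all genes lay near the TSS, and a larger share was found in both libraries. In replicate 1, 63.3% of member footprints had their middle within 100 bp of a TSS, beside 49.2% for all genes, and in replicate 2 it was 66.6%, beside 51.0%. Of the replicate 1 footprints at members 57.6% overlapped one of replicate 2, beside 42.0% for all genes, and of the replicate 2 footprints 69.7% overlapped one of replicate 1, beside 56.2%. At Ndufs7, 9 of the 10 footprints overlapped between libraries. Footprints of at least 20 bp made up 19.4% and 13.2% of member footprints in replicates 1 and 2, beside 15.2% and 9.88%. Member peaks had higher values than those of all genes, and the part of peak strength in these shares was not tested.

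**Figure D4:**
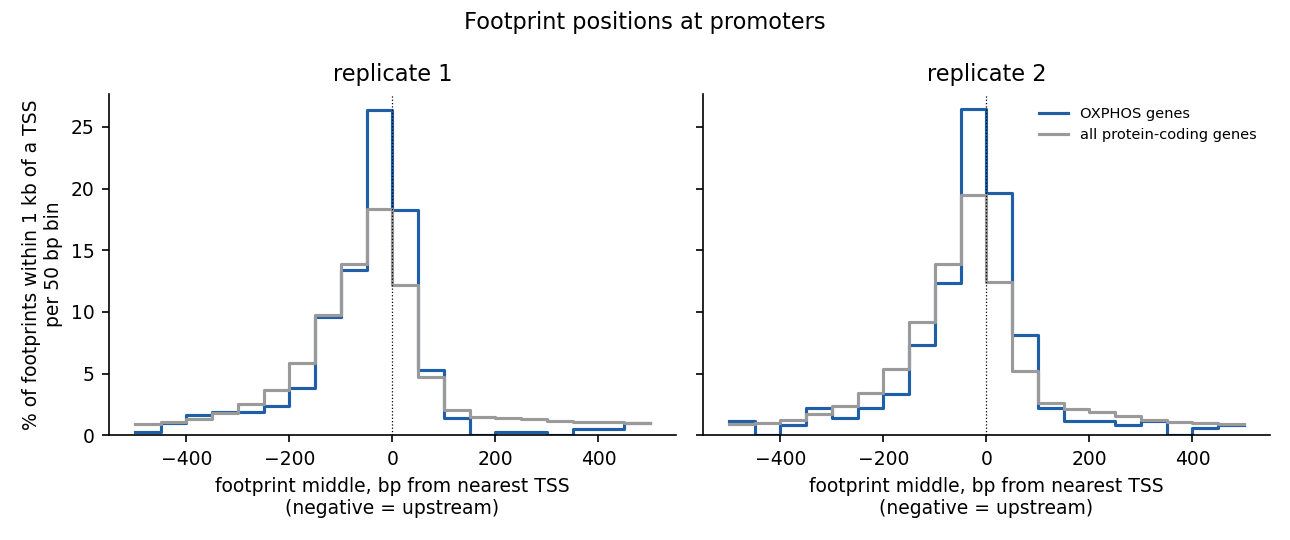
Position of footprint middles relative to the nearest TSS (x axis, bp, negative upstream) as the percent of all footprints within 1 kb of a TSS in each 50 bp bin (y axis), for members (blue) and all protein-coding genes (grey), with replicate 1 left and replicate 2 right. Member footprints rise above the grey line in the bins next to the TSS on both sides.

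Among the motifs searched in the 250 bases before and 50 after the TSS, those of NRF1, ETS, YY1, CRE and ERR were held by a larger share of members than of all genes, and those of NFY and SP/KLF were not. NRF1 was found at 13 of 86 members (15.1%), beside 5.98% of all protein-coding genes; in RefSeq promoter windows it was 17 of 67 (25.4%), beside 7.46%. ETS was found at 16 (18.6%), beside 10.8%, and YY1 at 8 (9.30%), beside 2.90%. CRE was found at 4 (4.65%), beside 2.43%, and ERR at 4 (4.65%), beside 1.22%. NFY stood at 38.4%, beside 39.0%, and SP/KLF at 40.7%, beside 43.0%. Against all genes with a peak in both libraries the members with such a peak had NRF1 at 16.7% and 9.75% for all, ETS at 20.5% and 16.2%, and YY1 at 8.97% and 4.11%. With windows of 100 bases on each side of the TSS the ETS shares were 25.6% and 14.5%, and with RefSeq windows 25.4% and 19.7%. SP/KLF was lower at members, 39.7% beside 60.0%. Proteasome genes held NRF1 at 15.4%, ETS at 28.2%, YY1 at 12.8% and CRE at 5.13%, each at or above the share of members. Ribosomal protein genes held NRF1 at 4.94%, ETS at 24.7%, YY1 at 7.41% and CRE at 6.17%, so ETS and CRE were above the share of members there too. ERR was at 0% of proteasome and 3.70% of ribosomal protein genes.

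Motif shares differed between complexes, on small numbers. NRF1 was in 5 of 38 promoters of complex I, 2 of 4 of complex II, 1 of 9 of complex III, 1 of 18 of complex IV and 4 of 17 of complex V. YY1 was in 5 promoters of complex I, 1 of complex II and 2 of complex V, and in 0 of complexes III and IV. NFY was in 10 of 17 promoters of complex V (58.8%) and 11 of 38 of complex I (28.9%). The complex V genes Atp5b and Atp5g1, with the highest mean values of that complex, hold repeated NFY matches, which are in capitals with any SP/KLF match in the 200 bases before their TSSs, printed as above.
Atp5b (chr10:128083073-128083272, +): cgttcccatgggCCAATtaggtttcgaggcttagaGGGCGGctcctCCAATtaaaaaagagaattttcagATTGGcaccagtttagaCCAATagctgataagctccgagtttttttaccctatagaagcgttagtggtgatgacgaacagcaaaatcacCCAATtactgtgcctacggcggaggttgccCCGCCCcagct
Atp5g1 (chr11:96075671-96075870, -): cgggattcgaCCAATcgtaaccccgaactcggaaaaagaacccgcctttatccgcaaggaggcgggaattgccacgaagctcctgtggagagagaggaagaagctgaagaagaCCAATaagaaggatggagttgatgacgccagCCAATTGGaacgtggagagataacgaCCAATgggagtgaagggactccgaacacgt
Each stretch holds 5 matches to NFY, and at Atp5g1 2 of these overlap, at -56 to -52 and -53 to -49. A replicate 1 footprint at Atp5b from -135 to -94 covers the matches at -130 to -126 and -113 to -109, and the replicate 2 footprint from -127 to -111 reaches into both. At Atp5g1 footprints from -73 to -50 in replicate 1 and from -80 to -53 in replicate 2 reach into the overlapping matches. Neither stretch has an NRF1, ETS, YY1, CRE or ERR match.

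In the footprints themselves the share with an NRF1 match was 5.52% in replicate 1 and 6.74% in replicate 2 at members, beside 2.37% and 2.65% at all genes. For ETS it was 2.88% and 3.93%, beside 1.75% and 1.67%, and for CRE 1.20% and 1.69%, beside 0.806% and 0.882%. SP/KLF was lower at members, 11.8% and 12.6%, beside 15.6% and 14.8%. NFY hardly differed, at 4.56% and 4.21% beside 4.26% and 3.83%. YY1 rested on 4 and 2 footprints of members, 0.959% and 0.562%, beside 0.382% and 0.357%. The direction was the same in both libraries for each of these motifs. An ERR match lay in 0 member footprints in replicate 1 and 1 in replicate 2. SP/KLF-holding footprints were found in both libraries at 27 members (31.4%, beside 22.5% of all genes), NFY at 10 (11.6%, beside 5.97%), YY1 at 1, Ndufc1 (1.16%, beside 0.535%), and ERR at 0, beside 0.0183%. Of genes with any footprint in both libraries SP/KLF was at 34.6% of members and 40.1% of all, NFY at 12.8% and 10.7%, YY1 at 1.28% and 0.956%, and ERR at 0% and 0.0327%. A match is a description of the letters and does not show which protein was bound.

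**Figure D5:**
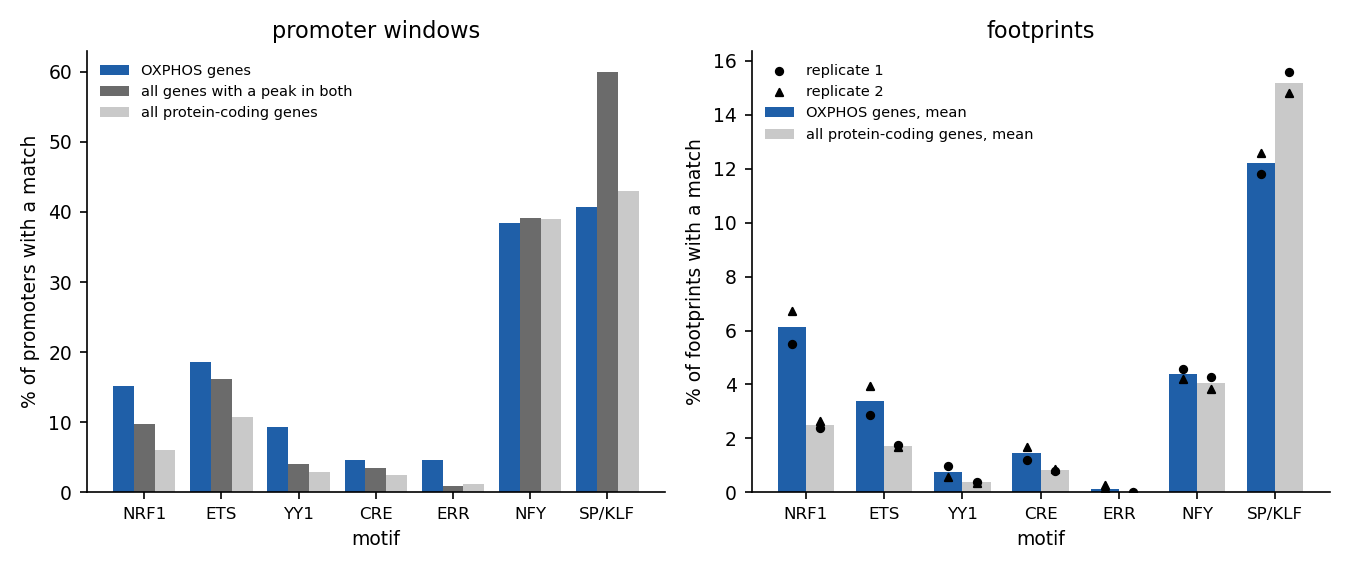
Percent of promoter windows (left, 250 bases before to 50 after the TSS) and of footprints (right, with 5 bases on each side) that hold a match to each motif (x axis), for members (blue), all protein-coding genes (light grey) and, left only, all genes with a peak in both libraries (dark grey). Right, bars are the means of the 2 replicates, circles replicate 1 and triangles replicate 2; the NRF1 bar of members is at 6.13% beside 2.51%.

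Genes that act with the complexes had accessible promoters as well. All 37 assembly factor genes listed, which put the complexes together without being part of them, had a peak in both libraries. The share was 59.0% over all protein-coding genes and 90.6% over all CpG-rich genes, and 31 of the 37 were CpG-rich. The assembly factor medians were 4.58 in replicate 1 and 3.52 in replicate 2. Bcs1l, which inserts the Rieske protein into complex III, was the highest in replicate 1 at 12.2, with 5.90 in replicate 2. Cycs, the somatic cytochrome c, had 8.37 and 6.10, and Cyct, the testis form, had none. All 12 regulators had a peak in both, and 9 of them were CpG-rich. Esrra, the gene of an estrogen-related receptor, had 15.4 and 8.54, above every member in both libraries. Ppargc1a, the coactivator known for driving mitochondrial genes, had 0.787 and 0.908, the lowest of the list. Nrf1 had 3.67 and 3.25 and Yy1 7.91 and 5.58.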

How the data were processed

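DNase-seq was done on 2 libraries of 1 group, replicates 1 and 2. For each library the authors deposited peaks in a longer and a shorter list, footprints, and single bases with an FDR, on mm10 (GRCm38), per the file headers. The aligner and callers, not given in the sources used here, could affect every value. Peak values are a signal deposited by the authors, with an unstated scale; they are whole multiples, within 0.05 steps, of 0.00884 in replicate 1 and 0.0103 in replicate 2. The base lists deposited by the authors hold q-values (FDR) under 0.05. The value in the deposited footprint lists, a q-value threshold of 0.01 on every line, was not used further.

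From these, the peaks of the longer list and the footprints within 1 kb of a TSS of a protein-coding GENCODE M21 transcript were taken for each gene, with an overlap of at least 1 base, and the highest peak value was its promoter value. Where genes start close together the same peak counts for each. A second annotated model of Atp5o was joined with the first, so 87 gene models gave 86 genes. Members and all lists, motifs and alternatives were chosen with earlier results of these data known. Named genes were, per complex, the 3 with the highest mean value, the 2 with most footprints, every gene without a peak in both libraries and the genes of alternative subunit forms; other names were chosen after their values were seen, and 1 gene that the rule takes is not reported here. Median percentiles are among genes with a peak in the same library. Motifs were searched as exact letters in the RefSeq GRCm38.p6 sequence, at the TSS farthest upstream, and RefSeq promoter windows were matched for 67 members. Reads of the F1 hybrid were placed on a C57BL/6J assembly, and no source used here says how CAST/EiJ alleles were handled. Procedures were tested on simulated data. Python 3.11.15, NumPy 2.4.6, pandas 2.3.3, pysam 0.24.0 and matplotlib 3.10.9 were used. Alternatives were a distance of 500 bp, a peak within 100 bp of a TSS, the 5′ end of the gene model only, the shorter peak lists, only CpG-rich promoters, only footprints in a peak, other motif windows and each replicate left out.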

Additional observations from a re-analysis of the deposited data

How the results depend on the processing

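The count of members with a promoter peak in both libraries ranged from 76 to 78 over the alternative distances, peak lists and TSS choices, beside 52.4% to 59.0% of all genes, and was 63 of 63 in CpG-rich promoters only. With 1 replicate left out the count of members with a peak ranged from 78 to 80, as did that of members with a footprint. The median value over members ranged from 3.88 to 4.73, and the median number of footprints from 4 to 5. The share of member footprints with a match then ranged from 5.52% to 6.74% for NRF1, 2.88% to 3.93% for ETS, 0.562% to 0.959% for YY1, 11.8% to 12.6% for SP/KLF, 4.21% to 4.56% for NFY, 1.20% to 1.69% for CRE and 0% to 0.281% for ERR. With promoter windows placed at the TSS nearest the strongest peak, an alternative chosen after seeing the data, 13 members held YY1 rather than 8, beside 3.32% of all genes. With matches required inside the footprint, with 0 bases on each side, the shares fell to 4.62% for NRF1, 1.42% for ETS, 0.24% for YY1, 6.67% for SP/KLF and 1.24% for NFY, beside 1.82%, 0.569%, 0.0936%, 8.92% and 1.32% of all footprints; NFY was then higher at members in replicate 1 (1.92% beside 1.52%) and lower in replicate 2 (0.562% beside 1.12%). In RefSeq promoter windows, matched for 67 members, 17 held NRF1 (25.4%), beside 7.46% of all genes. The 58 other values kept their count or share within 1.5 times, or their value within the spread between replicates. No paired analysis was possible because the labels give only 1 group. Read depth is unknown, so a missing peak or footprint, such as those of Cox6b2 and Cox7a1 in replicate 2, was only not detected at that library's depth.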
